A study of Mus musculus with 3 samples.

Results

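Nanog-low cells were defined here as the 25% of mouse embryonic stem (ES) cells with the lowest Nanog level within each replicate and condition of a single-cell RNA sequencing experiment. The cells were chosen from replicate 1, with all its plates, and from 2 of the 4 plates of replicate 3, after keeping wells with more than 2600 detected genes, and Nanog was expressed as CPM, its count of tagged molecules (UMIs) scaled to a total of 1000000 mouse gene counts per cell. This gave 128 Nanog-low cells, of which 85 came from replicate 1 and 43 from replicate 3, out of 506 cells in these plates and 1335 of 1536 wells past the filter in the whole series. The top 25% of the same replicate and condition gave 128 Nanog-high cells for comparison, and the cells between them entered no test. All cells carried RAD21, a subunit of the cohesin ring, fused to an auxin-inducible degron (AID) in the JM8.N4 line of C57BL/6N origin, a single engineered line, and all were grown without feeders on gelatin in serum with LIF and the inhibitors PD0325901 and CHIR99021. Control cells were untreated, and the others received 500 µM auxin (IAA) for 6 h, which marks the tagged protein for destruction. In replicate 1 the deposited annotation names the cells RAD21-positive and RAD21-negative, and these were read as control and auxin-treated. Every plate held 1 condition, so the plate and the condition cannot be told apart.

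Nanog is a homeodomain transcription factor of the network that holds ES cells in the naive state, together with Pou5f1, Sox2, Esrrb, Klf4, Tbx3 and Prdm14. In serum cultures its level is known to vary widely from cell to cell, cells with low Nanog can return to a high level, and they are known to enter differentiation more readily. Inhibition of MEK and GSK3 is known to make the naive state more uniform. Cohesin folds chromosomes into loops and holds sister chromatids together, and the question the comparison with auxin addresses is whether cells at either end of the Nanog range differ in their expression change after cohesin loss.

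The measured Nanog range was a graded one without a gap at either limit. In control cells of replicate 1 the Nanog-low cells ranged from 0 to 275.8 CPM with a median of 181 CPM, whereas the Nanog-high cells had a median of 793 CPM. The medians of low and high cells were 244 and 898 CPM in auxin-treated cells of replicate 1, 223 and 746 CPM in control cells of replicate 3, and 199 and 782 CPM in its auxin-treated cells. Only 2 of the 128 Nanog-low cells had no Nanog UMI, 1 in the control cells of each replicate. The cells were low and for the most part not negative for Nanog, with a median of 12.5 to 24 Nanog UMIs per low cell in the 4 arms. Just inside and just outside the lower limit, the values were 275.8 and 276.3 CPM in replicate 1 control, 330.4 and 336.0 CPM in replicate 1 auxin, 307.4 and 319.8 CPM in replicate 3 control, and 285.7 and 297.3 CPM in replicate 3 auxin. These values chose the cells and are given as a description only.

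**Figure D1:**
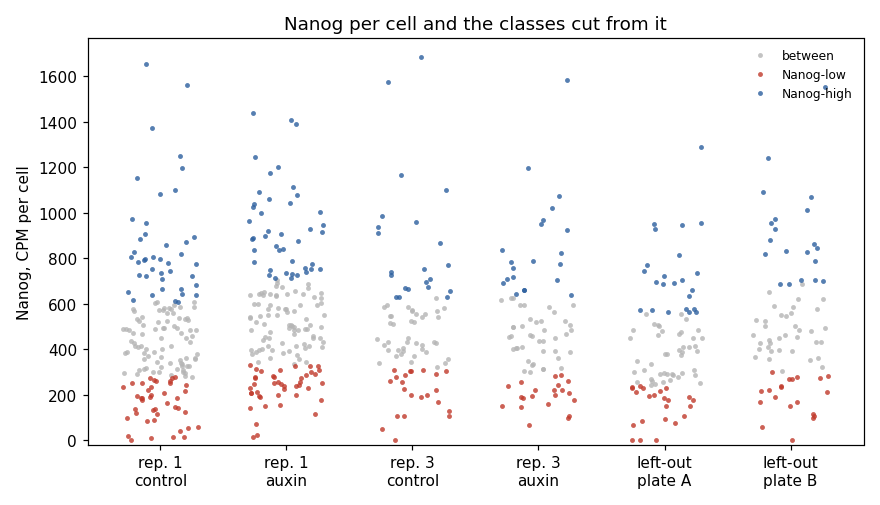
Nanog level of every cell (vertical axis, CPM) in the 4 arms used, each a replicate and condition, and in the 2 left-out plates of replicate 3 (horizontal axis), with Nanog-low cells in red, Nanog-high cells in blue and the cells between them in grey. The points form a continuous range in each arm, with medians of 181 to 244 CPM in the low cells and 746 to 898 CPM in the high cells of the 4 arms.

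Replicate 2 and the other 2 plates of replicate 3 were not used to choose the cells. Replicate 2 had a far lower Nanog level, with a median over all cells of 31.3 CPM in control and 0 CPM in auxin-treated cells, and its low class consisted of the 127 control and 148 auxin-treated cells with no Nanog UMI. The 2 left-out plates of replicate 3 have a condition in the deposited annotation that conflicts with other material of the study, and their 168 cells were used only to compare Nanog-low with Nanog-high cells within a plate, which does not need the condition (23 and 23 cells on plate A, 20 and 20 on plate B). They belong to replicate 3 and are not a further replicate. No well name was shared between replicates.

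Nanog itself was fixed by the rule, so only the other markers that came with the label bear on it. Tbx3, a T-box factor of the naive network, measured 68.9, 62.6, 94.3 and 44.6 CPM in the Nanog-low cells of replicate 1 control, replicate 1 auxin, replicate 3 control and replicate 3 auxin, against 133, 134, 121 and 116 CPM in the Nanog-high cells of the same arms. It was lower in 4 of 4 arms but did not pass the adjusted threshold (log2 difference, low minus high, -0.92 ± 0.18 (SE), edgeR quasi-likelihood test, Benjamini-Hochberg adjusted p = 0.103). Esrrb, an orphan nuclear receptor of the same network, measured 88.6, 67.0, 119 and 73.8 CPM in the low cells and 55.9, 73.3, 131 and 96.4 CPM in the high cells, with the classes in no fixed order (0.04 ± 0.19). Zfp42, which encodes the naive marker REX1, measured 287, 308, 219 and 255 CPM in the low cells and 267, 301, 168 and 270 CPM in the high cells (0.13 ± 0.11). Of the 3 markers none passed the threshold in edgeR, Tbx3 alone had the order of Nanog in every arm, and Esrrb and Zfp42 did not follow it.

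ES cell identity was checked with markers outside the rule. Dppa5a, an abundant pluripotency transcript, lay between 5561 and 8109 CPM in all 8 groups of low and high cells. Pou5f1 measured 298 and 250 CPM in the Nanog-low cells of replicate 1 but 24.3 and 32.9 CPM in those of replicate 3, and Sox2 measured 182 and 91.5 CPM in replicate 1 and had no UMI in any low or high cell of replicate 3 or of the left-out plates. In these defining genes of pluripotency the replicates thus stood apart, in both Nanog classes alike. The gene annotation used for counting is not given in the sources used here, so the 0 of Sox2 cannot be read as absence of its transcript, and why the replicates differed was not tested. Of the markers of other lineages, several defining genes were at or near 0 in the Nanog-low cells, but the whole lists were not. Fgf5 of primed cells, Gata6 of primitive endoderm, Cdx2 of trophectoderm, Col1a1 of fibroblasts and Zscan4c of 2-cell-like cells each reached at most 1.10 CPM in any of the 4 arms, T of mesoderm reached 3.65 CPM, and Gata4, also of primitive endoderm, 2.19 CPM. The summed level of the formative and primed list was 233 to 884 CPM in the low and 182 to 232 CPM in the high cells, lower in 0 of 4 arms with a ratio of 1.01 to 4.77, and the 884 CPM of replicate 1 control held 664 CPM of Krt18. The summed level of the primitive endoderm list was 537 to 754 CPM in the low and 585 to 811 CPM in the high cells, of which Sparc, a matrix protein not limited to that lineage, gave 479 to 577 CPM in the low cells. The fibroblast list summed to 92.8 to 244 CPM in the low and 43.6 to 176 CPM in the high cells, mostly from Vim. The trophectoderm list summed to 57.0 to 495 and 88.5 to 154 CPM, the neuroectoderm list to 40.9 to 155 and 46.6 to 181 CPM, the mesendoderm and mesoderm list to 7.86 to 51.9 and 10.9 to 44.1 CPM, and the 2-cell-like list to 0 to 4.86 and 0.58 to 9.22 CPM. The part of these transcripts in the comparisons that follow was not tested.

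In the 4 arms Nanog-low cells held fewer molecules and fewer detected genes than Nanog-high cells. The median UMI count per low cell was 83769, 102982, 64062 and 66492 in replicate 1 control, replicate 1 auxin, replicate 3 control and replicate 3 auxin. In the high cells it was 119122, 119028, 74656.5 and 74452. The mean of the 4 differences was -17488 ± 12376 UMIs (SD, n = 4 arms, exact permutation of the 4 signs, two-sided, p = 0.125), lower in 4 of 4 arms. Without replicate 1 control the mean was -11533.5 UMIs. Detected genes differed by -445.6 ± 134 (SD, n = 4, exact p = 0.125) and the percent of counts from the added ERCC spike-in RNA by 0.312 ± 0.231 points (SD, n = 4, exact p = 0.125). With 4 arms this test cannot give a p below 0.125. The left-out plates did not share each direction. The median UMI count of low and high cells was 56022 and 79201 on plate A but 70940.5 and 67871.5 on plate B, detected genes were fewer in low cells on both (6142 and 6685, 6307 and 6409), and the ERCC percent was slightly lower in low cells on both (2.45 and 2.50, 2.52 and 2.55). Whether fewer molecules were captured or the cells held less RNA was not tested.

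The cell cycle call moved with the Nanog class. The cyclone classifier, which assigns G1, S or G2/M from pairs of genes, placed 21.4%, 46.5%, 27.3% and 47.6% of the Nanog-low cells in G2/M in replicate 1 control, replicate 1 auxin, replicate 3 control and replicate 3 auxin. The Nanog-high cells stood at 45.2%, 60.5%, 68.2% and 66.7%. The share was lower in the low cells in 4 of 4 arms, by 24.4 ± 11.7 points on average (SD, n = 4, exact p = 0.125, the smallest possible). In replicate 1 the low cells had more cells in G1 (23 of 42 against 15 of 42 in control, 12 of 43 against 6 of 43 after auxin), whereas in replicate 3 they had more in S (14 of 22 against 6 of 22, and 9 of 21 against 5 of 21). Over the 4 arms the G1 share differed by 9.39 ± 8.67 points and the S share by 15.0 ± 16.4 points (exact p = 0.25 for each). The S difference rested largely on replicate 3 control and was 7.94 points without it, and the G1 difference was 6.17 points without replicate 1 control. On left-out plate A 11 of 23 low and 15 of 23 high cells were in G2/M, and on plate B 11 of 20 and 12 of 20, a smaller gap than the mean of the 4 arms. In G1 were 4 of 23 low and 2 of 23 high cells of plate A, but 3 of 20 and 5 of 20 of plate B. The phase calls read transcripts that the tests below also use, and depth differed between the classes, so the calls were repeated at equal depth. After every cell was thinned to 20000 UMIs the G2/M shares of the low cells were 21.4%, 44.2%, 28.6% and 50.0% and those of the high cells 42.9%, 60.5%, 68.2% and 75.0%. The mean differences of these cells were then -25.6 points for G2/M, 16.2 points for G1 and 9.37 points for S, values added after the data were seen. With the classes also set anew on the thinned counts they were -18.8, 12.3 and 6.46 points. Thinning left out 3 of 21 low cells and 1 of 21 high cells of replicate 3 auxin, and 1 of 22 low cells of replicate 3 control.

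The counts of the cells of each class were then summed per arm, and 13191 genes other than Nanog were tested across the 8 sums with the arm as a block. A sum held between 1368190 and 5100135 UMIs. Of these genes, 6 passed the adjusted threshold of 0.05, 0.0455% of those tested, of which 1 was higher (0.00758%) and 5 were lower (0.0379%) in Nanog-low cells. At an unadjusted p under 0.05 there were 1035 genes, 7.85% of those tested, with 494 higher and 541 lower. DESeq2 called 90 genes, 1.8% of the 5007 it kept, with 43 higher (0.859%) and 47 lower (0.939%), and limma on the mean of log2(CPM + 10) over cells called 0, with 1462 at an unadjusted p under 0.05. The number of calls thus depended on the tool. The 6 genes were Apoe, Calcoco2, Dusp14, Sgk1, Pttg1 and Olfr1459, and edgeR and DESeq2 both called each of them.

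Apoe, which encodes the lipid carrier apolipoprotein E (chromosome 7, 19696109 to 19699188, mm10), was the single higher gene. It measured 1947, 1799, 2891 and 2160 CPM in the Nanog-low cells of replicate 1 control, replicate 1 auxin, replicate 3 control and replicate 3 auxin, and 1293, 1258, 1620 and 1138 CPM in the Nanog-high cells. It was higher in 4 of 4 arms. Over all tested genes, 7.56% were higher in 4 of 4 arms and 8.1% were lower in 4 of 4 arms. The log2 difference was 0.74 ± 0.08 (SE, edgeR adjusted p = 0.0042). On the left-out plates the low cells measured 2334 and 2372 CPM and the high cells 1541 and 1803 CPM, a log2 difference of 0.48 ± 0.09 (edgeR adjusted p = 1.5e-05). In replicate 2 the difference was 0.01 ± 0.08.

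Calcoco2, an autophagy receptor (chromosome 11, 96099326 to 96111964), had the clearest lower value. It measured 753, 490, 612 and 754 CPM in the low cells against 996, 899, 1235 and 1355 CPM in the high cells (-0.76 ± 0.10, edgeR adjusted p = 0.0284). It was lower in every arm, although 1 cell gave 25.2% of its counts in the low cells of replicate 1 control. The left-out plates gave -0.84 ± 0.12 (adjusted p = 9e-09). In replicate 2, where the low class holds only cells with no Nanog UMI, the difference was -3.08 ± 0.23 (adjusted p = 0.00017), with Calcoco2 at 9.44 and 7.28 CPM in the low cells and 57.6 and 74.6 CPM in the high cells of control and auxin.

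Sgk1, a serum- and glucocorticoid-induced kinase (chromosome 10, 21882184 to 21999903), measured 107, 121, 148 and 128 CPM in the low cells and 223, 205, 318 and 201 CPM in the high cells. It was lower in every arm, with a log2 difference of -0.87 ± 0.13 (edgeR adjusted p = 0.0284). On the left-out plates the fit gave -1.04 ± 0.23 (adjusted p = 0.002), but this rested on plate B (88.6 against 384 CPM), since plate A measured 213 against 214 CPM. In replicate 2 the value was -0.94 ± 0.20 (adjusted p = 0.082).

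Pttg1 encodes securin, the inhibitor that guards cohesin cleavage until anaphase (chromosome 11, 43420250 to 43426251). It measured 277, 321, 319 and 407 CPM in the low cells and 467, 433, 575 and 724 CPM in the high cells (-0.69 ± 0.10, edgeR adjusted p = 0.0284). The left-out plates gave -0.90 ± 0.15 (adjusted p = 3.7e-06), again mostly from plate B, with 313 against 1043 CPM, while plate A measured 498 against 517 CPM.

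Dusp14, a dual-specificity phosphatase (chromosome 11, 84048041 to 84069261), measured 91.9, 112, 82.1 and 70.9 CPM in the low cells and 156, 243, 166 and 250 CPM in the high cells (-1.14 ± 0.17, edgeR adjusted p = 0.0284). The left-out plates had the same sign at -0.64 ± 0.29 without passing (adjusted p = 0.469). Olfr1459, annotated as an olfactory receptor gene (chromosome 19, 13138021 to 13149549), measured 12.3, 18.8, 8.57 and 10.2 CPM against 81.0, 60.3, 38.6 and 24.9 CPM (-1.97 ± 0.29, edgeR adjusted p = 0.0284). A single cell gave 72.4% of its counts in the high cells of replicate 1 control, and counts could be split between related members of this large family, so the gene is uncertain.

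**Figure D2:**
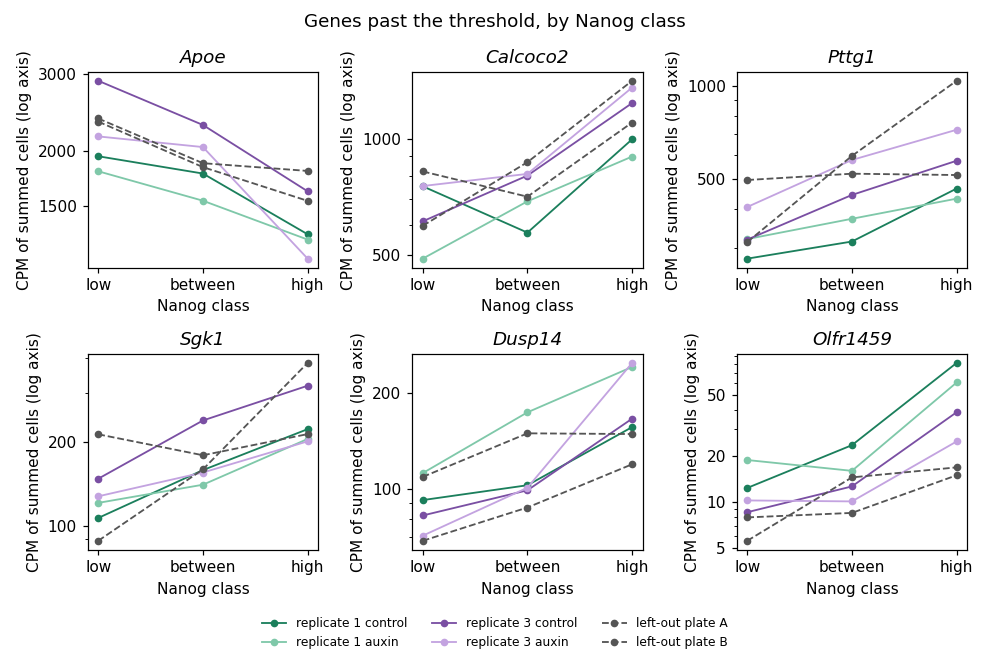
CPM of the summed cells (vertical axes, log scale) of the 6 genes past the threshold by Nanog class (horizontal axes), with 1 line per arm and dashed grey lines for the left-out plates of replicate 3. In the 4 arms Apoe falls from low to high cells and the other genes rise from low to high. The 6 genes were chosen by a test on the sums of these arms.

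The same direction was counted in the cells the rule did not use. Of the 1035 genes with an unadjusted p under 0.05, 904 were tested on the left-out plates and 643 of them had the same sign there, 71.1%, against 56.2% of the 10222 genes tested in both. All 6 called genes kept their sign and 4 were called there. The left-out plates on their own gave 74 calls, 0.716% of 10331 genes, 23 higher (0.223%) and 51 lower (0.494%). Replicate 2 gave 99 calls, 0.51% of 19422 genes, and there the share of the same sign was 57.5% of 1007 genes, against 52.5% of 12733 genes tested in both. Of the 6 called genes 5 were tested in replicate 2, all 5 with the same sign, and 1 was called there.

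A further group of genes lay just above the adjusted threshold and was named after its values were seen. Prdm14, a repressor of differentiation genes in the naive network, measured 73.5, 36.5, 73.6 and 32.9 CPM in the low cells and 129, 80.8, 138 and 69.1 CPM in the high cells (-0.96 ± 0.17, edgeR adjusted p = 0.0764). It was lower in 4 of 4 arms and passed on the left-out plates (-1.67 ± 0.32, adjusted p = 9.7e-05). Aqp3, a water and glycerol channel, measured -0.88 ± 0.16 on the log2 scale (adjusted p = 0.0764) and passed there as well (-1.52 ± 0.27, adjusted p = 2.1e-05). Cd9, a tetraspanin of the ES cell surface, measured 822, 567, 391 and 347 CPM against 974, 858, 562 and 615 CPM (-0.52 ± 0.10, adjusted p = 0.103), and on the left-out plates -0.60 ± 0.16 (adjusted p = 0.024). Chka, which starts phosphatidylcholine synthesis, had the value -0.82 ± 0.14 (adjusted p = 0.0602). On the other side, Ldhb, a lactate dehydrogenase subunit, measured 223, 224, 150 and 147 CPM in the low cells and 152, 117, 69.7 and 88.5 CPM in the high cells (0.84 ± 0.14, adjusted p = 0.0501), and Mylpf, a myosin light chain, had the value 0.53 ± 0.09 (adjusted p = 0.0602). In replicate 2 Mylpf was called in the other direction (-1.37 ± 0.11, edgeR adjusted p = 0.00026).

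Gene lists chosen for the tissue and treatment were then read against all tested genes, whose median log2 difference was -0.01. None of the listed genes passed the adjusted threshold in edgeR. DESeq2 called 13 of them, 2 higher and 11 lower, against 0.859% higher and 0.939% lower of the 5007 genes it kept. How many listed genes were among those kept was not counted. Unless DESeq2 is named, the counts below are at an unadjusted p under 0.05 in edgeR. Of all tested genes 3.74% reached it on the higher side and 4.1% on the lower. Of the 20 naive pluripotency genes, all tested, 0 were higher and 7 were lower, with a median of -0.14. The 7 were Tbx3, Prdm14, Jam2, Fgf4, Tfcp2l1, Nr5a2 and Tet2. Their summed level, which Dppa5a dominates, was 8488 to 10983 CPM in the low cells and 10301 to 11353 CPM in the high cells, lower in 4 of 4 arms with a ratio of 0.824 to 0.967. DESeq2 called 3 of the 20, Jam2, Prdm14 and Tbx3, all lower. Jam2, a cell adhesion molecule, measured 324, 298, 339 and 430 CPM against 414, 581, 504 and 625 CPM (-0.59 ± 0.11). Fgf4, the growth factor through which ES cells stimulate ERK signalling, measured 79.8, 186, 116 and 67.2 CPM against 163, 331, 113 and 101 CPM (-0.60 ± 0.17), with the classes level in replicate 3 control. Klf2 (-0.12 ± 0.09), Klf5 (-0.02 ± 0.13) and Nr0b1 (-0.04 ± 0.17) did not pass.

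General pluripotency genes were spread around 0. Of 15 tested, 2 were higher and 2 lower, with a median of -0.01. Tdgf1, the Nodal co-receptor, measured 526, 444, 446 and 440 CPM in the low cells against 633, 596, 714 and 687 CPM in the high cells (-0.48 ± 0.10, adjusted p = 0.129) and was called in replicate 2 (-0.92 ± 0.06, edgeR adjusted p = 0.0001). Dppa2 had the value -0.49 ± 0.15. The other 2 were Epcam (0.69 ± 0.27) and Pou5f1 (0.81 ± 0.33), whose value comes from the few Pou5f1 molecules of replicate 3, since replicate 1 measured 298 against 245 CPM in control and 250 against 241 CPM after auxin.

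Formative and primed genes had 14 tested members, of which 4 were higher and 0 lower, with a median of 0.06 and a positive median in each arm. By sign alone 7 members lay above 0 and 7 below. The list median was 0.56 on the left-out plates and 0.20 with thinned cells. It was -0.10 with the classes set within 3 bins of the UMI count, -0.0003 with limma and -0.07 in replicate 2. Dnmt3a and Dnmt3b, the de novo DNA methyltransferases, had the values 1.08 ± 0.32 and 0.77 ± 0.27. Dnmt3b measured 39.5, 23.2, 64.3 and 46.0 CPM in the low cells and 24.7, 18.0, 21.9 and 33.9 CPM in the high cells, higher in 4 of 4 arms. On the left-out plates Dnmt3a had the value -0.54 ± 0.57 and Dnmt3b 0.18 ± 0.45. Lef1, a Wnt effector, rested on at most 8 cells with a UMI in any group of the 4 arms. For Krt18, the fourth, 1 cell held 84.3% to 90.6% of the low cells' counts in each arm. Without that cell the low cells measured 64.8, 3.82, 0.76 and 9.12 CPM, against 10.0, 6.28, 2.30 and 20.6 CPM in all high cells, so they stayed higher in replicate 1 control alone. Primitive endoderm genes had 12 tested members and none past p 0.05 in either direction. Of the mesendoderm and mesoderm genes 3 were tested, with Gsc lower (-1.17 ± 0.49), of the neuroectoderm genes 4 were tested with 0 in either direction, and of 16 listed 2-cell-like genes none reached the filter. Trophectoderm genes had 8 tested members, 2 higher (Krt8 and Gata2) and a median of 1.28, which comes from replicate 1 control, where it was 2.73 against -0.03 to 0.11 in the other arms. Of the fibroblast genes only Vim was abundant enough to test (0.76 ± 0.19), while Col1a1 lay at 0 to 0.73 CPM in the low cells.

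Genes of the G2/M phase leaned to lower values in Nanog-low cells, with 20 of 22 below 0 and none past the adjusted threshold in edgeR. Of 22 tested, 8 were lower and 1 was higher, with a median of -0.24, and 9 of 22 were lower in 4 of 4 arms. Their summed level was 4107, 5119, 6147 and 7109 CPM in the low cells and 4989, 6984, 6878 and 8837 CPM in the high cells of replicate 1 control, replicate 1 auxin, replicate 3 control and replicate 3 auxin. Cdk1, the mitotic kinase, measured 170, 235, 297 and 334 CPM against 288, 411, 370 and 465 CPM (-0.57 ± 0.11, adjusted p = 0.0989), and its partner Ccnb1 256, 404, 454 and 654 CPM against 390, 599, 558 and 755 CPM (-0.40 ± 0.10). DESeq2 called 5 of the 22, all lower, where 0.939% of all genes it kept were called lower. Mki67, a proliferation marker, was the 1 higher gene (0.42 ± 0.16). When the classes were set within 3 bins of the UMI count, an alternative added after seeing the data, the list median was -0.08, and on the left-out plates it was -0.04. Of 20 G1/S genes, 0 were higher and 1 was lower (Mcm6), with a median of 0.02.

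Cohesin and CTCF genes, the machinery the experiment targets, had 14 tested members with 2 higher, 0 lower and a median of 0.23. Their summed level was 1864, 1725, 1972 and 1987 CPM in the low cells and 1614, 1575, 1888 and 1769 CPM in the high cells, higher in 4 of 4 arms with a ratio of 1.04 to 1.15. The 2 genes were Rad21 and Wapl, which encodes the factor that releases cohesin from DNA (0.46 ± 0.19). Rad21, the transcript of the tagged protein, measured 37.9, 28.5, 35.7 and 46.8 CPM in the low cells and 15.7, 12.1, 30.5 and 46.7 CPM in the high cells (0.72 ± 0.30, adjusted p = 0.554), a difference that lay in replicate 1. The degron acts on the protein, so the transcript does not check the loss of RAD21. The list median on the left-out plates was 0.23, and in replicate 2 it was -0.04.

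The LIF and STAT3 targets (9 tested), the FGF and ERK feedback genes (10 tested), the Wnt targets (10 tested) and the DNA methylation genes (7 tested) had 0 members past p 0.05 in either direction, with medians of -0.11, -0.11, 0.20 and 0.26. Dnmt3a, Dnmt3b and Tet2, which also act on DNA methylation, are counted above in the formative and naive lists. Of 8 Nodal targets 1 was lower (Gdf3), with a list median of -0.17. Of 14 p53 targets 2 were lower, among them Ccng1 (-0.49 ± 0.11), but 10 lay above 0 and the list median was 0.15. Of 12 heat shock and stress genes 1 was higher (Hspb1) and 2 were lower (Atf3 and Asns), with a median of -0.01.

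**Figure D3:**
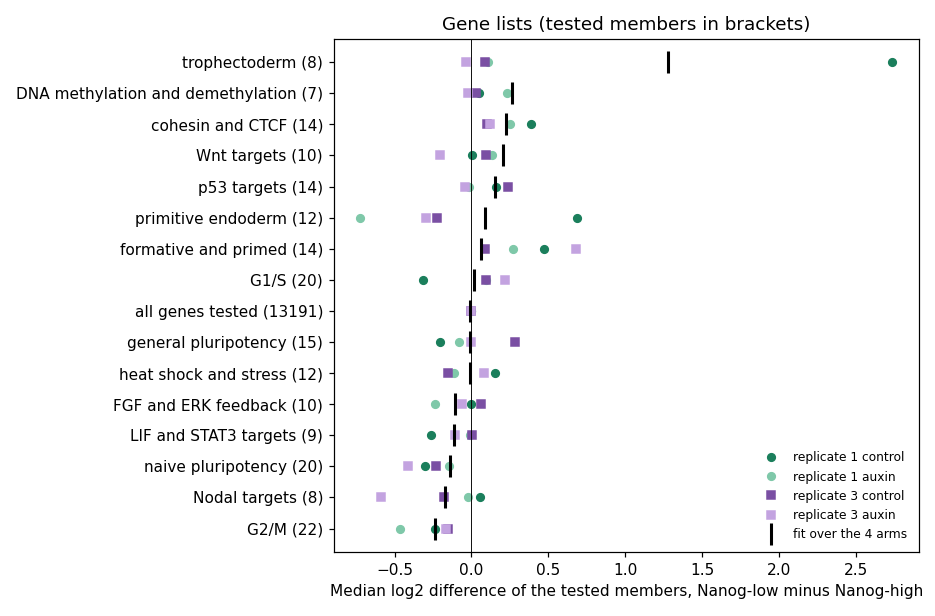
Median log2 difference of the tested members of each gene list, Nanog-low minus Nanog-high (horizontal axis), with 1 symbol per arm and a black bar for the fit over the 4 arms, for the lists with at least 5 tested members (vertical axis, number tested in brackets) and all tested genes. G2/M and naive pluripotency genes lie below 0 in all 4 arms (fitted medians -0.24 and -0.14), cohesin and CTCF genes above 0 in all 4 arms (0.23), and the trophectoderm median of 1.28 comes from replicate 1 control alone.

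Nanog lies on chromosome 6 (122707489 to 122714633), and the genes around it were examined with it. Of 64 genes within 1 Mb, 13 were tested, with 9 lower in Nanog-low cells, 4 at an unadjusted p under 0.05, 0 called by edgeR and a median of -0.15. The 4 were Slc2a3, a neuronal-type glucose transporter (-0.40 ± 0.09, adjusted p = 0.134), M6pr (-0.32 ± 0.12), Gdf3 (-0.26 ± 0.10) and Necap1 (-0.57 ± 0.21), all lower in 4 of 4 arms. The other 649 tested genes of chromosome 6 had a median of -0.12, and 85 of them (13.1%) were at an unadjusted p under 0.05 in either direction, against 4 of 13 neighbours (30.8%). This difference in shares was not tested. By chromosome, the median for genes of at least 20 CPM was -0.14 on chromosome 6, -0.09 on chromosome 11 and -0.09 on chromosome 1, and of all tested genes 10.9%, 7.59% and 7.37% there were lower at an unadjusted p under 0.05. The replicates differed in this. Chromosome 11 had medians of -0.19 and -0.15 in replicate 1, -0.01 and 0.00059 in replicate 3 and -0.01 on the left-out plates. Chromosome 1 showed the reverse split, with -0.0015 and -0.03 in replicate 1, -0.09 and -0.20 in replicate 3 and -0.25 on the left-out plates. Chromosome 6 had -0.04 and -0.07 in replicate 1, -0.22 and -0.23 in replicate 3 and -0.23 on the left-out plates. Chromosome 18 lay farthest from 0 in the fit of the 4 arms, on the higher side, with a median of 0.18 in the fit and of 0.11, 0.17, 0.14 and 0.19 in the 4 arms, and 36 of its 311 tested genes were higher and 8 lower at that p. Its median on the left-out plates was 0.03, and it was 0.10 with the classes set within the chromosome ranges described next. The medians of the remaining chromosomes lay between -0.01 and 0.07 in the fit. Among them chromosome 16 (0.07) had medians of -0.04 and -0.04 in replicate 1, 0.09 and 0.30 in replicate 3 and 0.30 on the left-out plates. On the chromosomes other than 1, 6 and 11, 1.63% to 4.92% of the genes were lower at that p. Of the 5 lower calls, 3 (Calcoco2, Dusp14 and Pttg1) lie on chromosome 11.

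**Figure D4:**
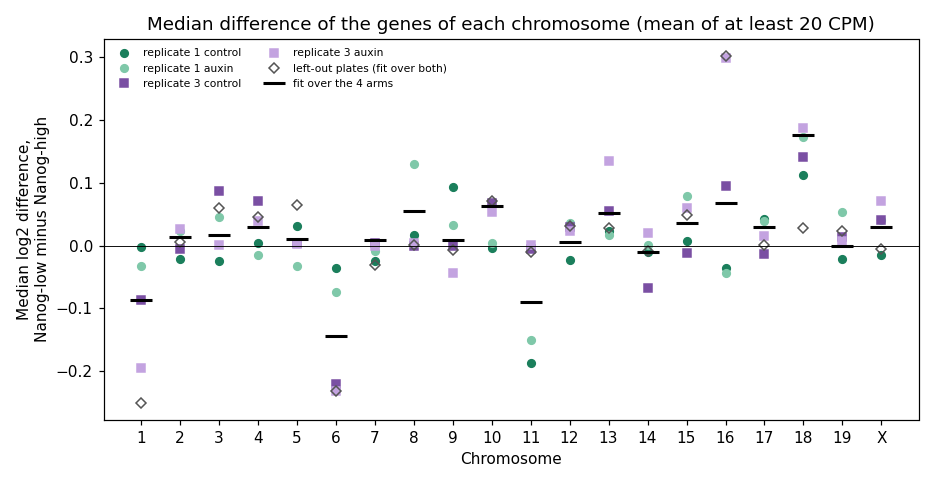
Median log2 difference of the genes of each chromosome, Nanog-low minus Nanog-high (vertical axis), for genes with a mean of at least 20 CPM by chromosome (horizontal axis), with 1 symbol per arm, open diamonds for the fit over the left-out plates and black bars for the fit over the 4 arms. Chromosome 6 lies lowest in the fit over the 4 arms, with medians of -0.22 and -0.23 in the arms of replicate 3, and -0.04 and -0.07 in those of replicate 1.

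Each cell's share of UMIs from a chromosome was therefore computed, over 6063 genes of at least 20 CPM with Nanog left out, which held a median of 89.9% of a cell's UMIs. These chromosomes and the limits below were chosen after the values were seen. In replicate 3 the share of chromosome 6 fell into 2 ranges divided at 5.89%, with 50 of 169 cells below it (median 4.88%) and the others above (median 6.92%), a ratio of 1.42 and with 6 cells within 0.25 points of the divide. Nanog-low cells were more frequent in the lower range than Nanog-high cells. In replicate 3 control 12 of 22 Nanog-low cells lay there (54.5%, exact binomial 95% interval 32.2 to 75.6%) against 2 of 22 Nanog-high cells (9.09%, 1.12 to 29.2%), and after auxin 11 of 21 (52.4%, 29.8 to 74.3%) against 1 of 21 (4.76%, 0.12 to 23.8%). The intervals cover counting error only, and cells of an arm are not replicates. On the left-out plates the counts were 13 of 23 (34.5 to 76.8%) against 6 of 23 (10.2 to 48.4%) and 12 of 20 (36.1 to 80.9%) against 3 of 20 (3.21 to 37.9%), with overlapping intervals on both. In replicate 1 few cells lay in that range, 5 of 42 against 2 of 42 in control and 5 of 43 against 0 of 43 after auxin, also with overlapping intervals. As a description over all cells, the median Nanog level below and above the divide was 397 and 543 CPM in replicate 3 control, 270 and 504 CPM in replicate 3 auxin, 366 and 511 CPM in replicate 1 auxin, but 467 and 429 CPM in replicate 1 control, where 12 cells lay below.

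The share of chromosome 1 also had 2 ranges in replicate 3, divided at 6.15%, and it moved together with that of chromosome 6. Of the Nanog-low cells, 11 of 22 in control and 10 of 21 after auxin lay below it, against 4 of 22 and 1 of 21 of the Nanog-high cells. Both shares were low in the same cells for 10 of 22 and 9 of 21 Nanog-low cells, and for 2 of 22 and 0 of 21 Nanog-high cells. In replicate 1 the split lay on chromosome 11 instead. There the share divided at 10.3%, with 257 of 337 cells below (median 8.78%), a median of 12.4% above and no cell within 0.25 points of the divide. Of the Nanog-low cells 8 of 42 in control and 4 of 43 after auxin lay in the upper range, against 16 of 42 and 14 of 43 of the Nanog-high cells. In replicate 3 nearly all cells of either class lay above this value. Chromosome 8 had 2 ranges in replicate 1 only, divided at 7.35%, less cleanly, with 18 cells within 0.25 points of the divide. Of the Nanog-low cells 28 of 42 in control and 34 of 43 after auxin lay in its upper range, against 24 of 42 and 26 of 43 of the Nanog-high cells. Cultured ES cells are known to gain whole chromosomes. DNA content was not analysed here, and the part of chromosome copy number in the Nanog classes was not tested.

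**Figure D5:**
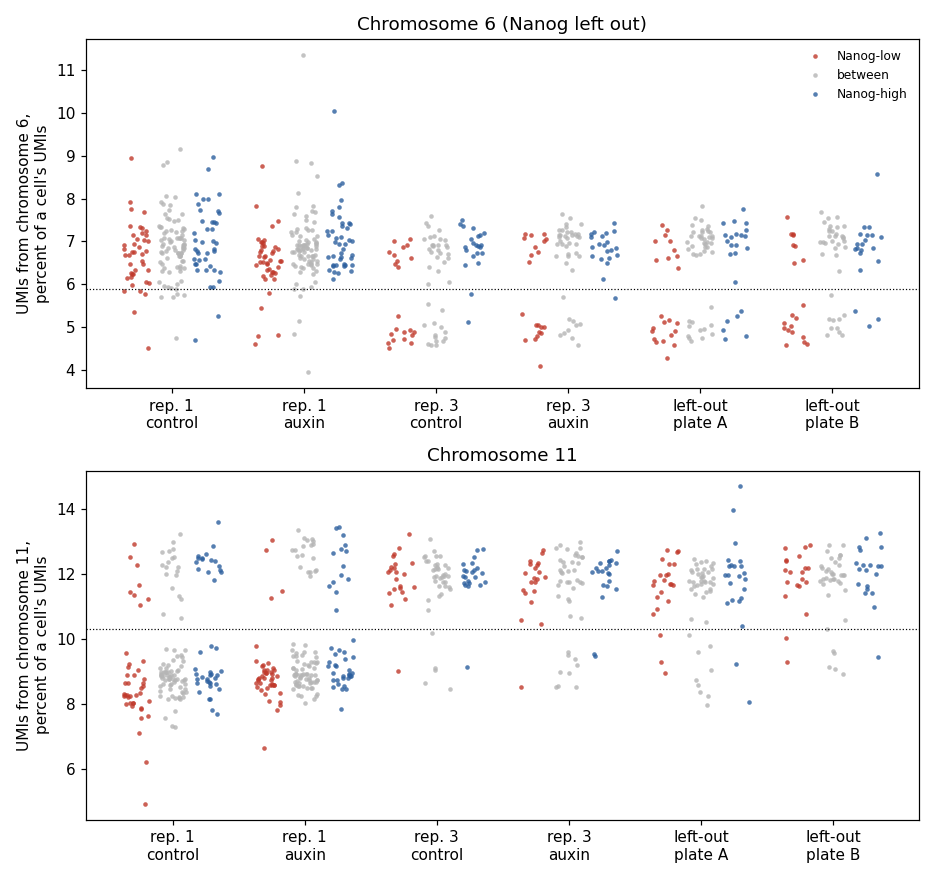
Share of a cell's UMIs that came from chromosome 6 without Nanog (top) and chromosome 11 (bottom), in percent (vertical axes), for every cell by arm and left-out plate (horizontal axes), with Nanog-low cells in red, Nanog-high cells in blue and the others in grey and the divide as a dotted line. In replicate 3 the red points of chromosome 6 are split, with 12 of 22 and 11 of 21 below 5.89%, while all but 2 and 1 of the blue points lie above it, and in replicate 1 the cells form 2 bands on chromosome 11 divided at 10.3%.

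With the classes set within these ranges of chromosomes 6 and 11, so that low and high cells came from the same range, 9 of 13384 genes were called (2 higher, 7 lower), an alternative added after seeing the data. The median of chromosome 6 for genes of at least 20 CPM was then -0.02, which setting the classes by this share largely fixes. Apoe (0.52 ± 0.07, edgeR adjusted p = 0.0161), Calcoco2 (-0.61 ± 0.09, 0.0196) and Dusp14 (-0.91 ± 0.13, 0.017) passed, whereas Sgk1 (-0.70 ± 0.12, adjusted p = 0.0593), Olfr1459 (-1.62 ± 0.30, adjusted p = 0.097) and Pttg1 (-0.29 ± 0.09, adjusted p = 0.618) did not. Tbx3 had the value -0.51 ± 0.19 and Prdm14 -0.61 ± 0.20, each nearer to 0 than over all cells, and Vim had the value 0.07 ± 0.20.

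The change after auxin was then compared between the classes. In Nanog-low cells edgeR passed 0 genes of 13191 (0%), 727 of them (5.51%) reached p 0.05 before adjustment, and DESeq2 and limma each called 0, the latter with 679 before adjustment. In Nanog-high cells edgeR called 0 genes (0%), 556 (4.21%) before adjustment, DESeq2 7 (0.107% of 6541) and limma 0, with 675 before adjustment. The median size of the log2 change after auxin was 0.361 in Nanog-low and 0.325 in Nanog-high cells over all tested genes, and 0.257 and 0.228 over the 8414 genes of at least 10 CPM. The sums of low cells hold fewer UMIs, and neither the difference in size nor the part of depth in it was tested. The tests of the difference itself called 2 genes, 0.0152% of those tested, with 411 at an unadjusted p under 0.05 (3.12%), and DESeq2 and limma called 0, limma with 383 at that p. In both, 1 cell held most counts of a group. Krt18, a keratin of simple epithelia, measured 664 CPM in the low cells of replicate 1 control, where 1 cell held 90.6% of the counts and the level without it was 64.8 CPM (difference of the log2 changes -3.71 ± 0.57, edgeR adjusted p = 0.00085). Gm38224, a predicted gene, measured 385 CPM in the high cells of replicate 1 auxin, where 1 cell held 69.0% and the level without it was 122 CPM (-3.40 ± 0.53, adjusted p = 0.00085).

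None of the following genes passed the adjusted threshold in edgeR for the change after auxin in either class, or for its difference between them. In Nanog-high cells DESeq2 called Dkk1 (adjusted p = 2.17e-05) and Klf5 (adjusted p = 0.00231), and edgeR with no filter on low counts called Dkk1, Klf4 in low and Klf5 in high cells. Dkk1, a secreted Wnt inhibitor, measured 27.7 and 73.0 CPM in Nanog-low cells of replicate 1 and 6.43 and 48.2 CPM in those of replicate 3, in control and after auxin. In the Nanog-high cells it measured 8.63 and 54.5 CPM, and 7.48 and 111 CPM. The log2 change was 1.75 ± 0.49 in low cells (adjusted p = 0.662) and 3.40 ± 0.54 in high cells (adjusted p = 0.0707), and their difference -1.40 ± 0.63 (unadjusted p = 0.0313, adjusted p = 1). Klf5, a Krüppel-like factor of the naive network, had the values -0.83 ± 0.20 in low and -1.06 ± 0.19 in high cells, with a difference of 0.23 ± 0.27. Klf4, its relative, had the value -1.83 ± 0.43 in low and -0.47 ± 0.42 in high cells, with a difference of -1.26 ± 0.53 (unadjusted p = 0.0217, adjusted p = 1). In the auxin-treated Nanog-low cells of replicate 3 only 4 of 21 cells held a Klf4 UMI (7.31 CPM), against 15 of 21 Nanog-high cells (61.2 CPM) and 8 of 22 Nanog-low control cells (44.3 CPM). In replicate 1 the low cells measured 176 CPM in control and 54.6 CPM after auxin, and the high cells 120 and 63.6 CPM. Prdm14 had values of the same sign in both classes (-1.08 ± 0.27 and -0.84 ± 0.25), and Tet2, a DNA demethylase, measured 64.5, 35.8, 72.9 and 27.04 CPM in the low cells and 65.1, 73.5, 92.1 and 88.5 CPM in the high cells over the 4 arms, with a difference of the log2 changes of -1.16 ± 0.44 (unadjusted p = 0.0113, adjusted p = 1).

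Of the gene lists, the naive genes had 1 member higher and 8 lower after auxin at an unadjusted p under 0.05 in Nanog-low cells and 2 higher and 3 lower in Nanog-high cells, with medians of -0.03 and 0.01. General pluripotency genes had 0 higher and 7 lower of 15 in low cells (median -0.28) and 0 higher and 2 lower in high cells (median -0.12). Trophectoderm genes had 0 higher and 4 lower of 8 in low cells (median -1.79), where 1 cell held 70.4% of the Krt8 counts of replicate 1 control, and 0 higher and 1 lower in high cells (median -0.55). Primitive endoderm genes had 3 lower of 12 in low cells and none in either direction in high cells. The corresponding shares over all genes were 2.65% higher and 2.87% lower in low cells and 2.21% and 2.01% in high cells. G2/M genes had 4 higher and 0 lower in low cells (median 0.28) and 10 higher and 0 lower in high cells (median 0.44), and for 2 of 22 the change was lower in low cells at an unadjusted p under 0.05. For the naive list 4 of 20 had such a p, 1 higher and 3 lower, and over all tested genes 3.12% had it in either direction. The classes share no cells but come from the same replicates and plates.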

How the data were processed

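The authors aligned Smart-SCRB reads to mm10 and deposited UMI counts per gene and cell, with detected genes, the summed count and the ERCC percent of each cell. The aligner, counting program and annotation are not given in the sources used here. The deposited detected-gene numbers and summed counts equalled recomputed ones in 1536 of 1536 wells. A count is a number of tagged molecules, CPM divides by a cell's or a sum's mouse gene counts, and no filter on doublets was applied. Intervals cover counting error only.

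The cells, gene lists, named genes and tests were chosen with earlier results of these data known. Counts were summed per replicate, condition and Nanog class and tested with edgeR 4.0.16 (quasi-likelihood, TMM, filterByExpr, Benjamini-Hochberg over all tested genes, threshold 0.05) in R 4.3.3, with the replicate-condition arm as a block, since low and high cells of an arm come from the same deposited sample. Auxin was tested with the replicate as a block. SE was computed from the log2 difference and F. Replicates are those of the labels, 4 arms come from 2 of them, and p-values of the main tests measure the spread between arms. The fits of the left-out plates, of replicate 2 and of any 2 arms use 4 sums and leave 1 residual degree of freedom. They lean on the spread shared by other genes, so their small p-values do not measure the spread between 2 plates or arms. Named genes were those past the threshold with a mean of at least 10 CPM and the same sign in all arms, up to 10 per direction (5 for auxin), up to 6 members of each list, Nanog, its neighbours within 1 Mb, its markers, Rad21, Dkk1, Klf4 and Klf5, and others said to be chosen after their values were seen. Positions came from GENCODE for mm10. The alternatives were DESeq2 1.42.0, limma 3.58.1 on the mean of log2(CPM + 10), other class limits, filters, scalings and cells, and thinning to 20000 UMIs. Phases used scran 1.30.0, other steps Python 3.11.15, numpy 2.4.6, scipy 1.17.1 and pandas 2.3.3. In simulated sums, changes were placed only in genes with a mean of at least 10 CPM, so recovery of lower genes was not measured. There edgeR recovered 47.5% of 2-fold and 89% of 4-fold changes between classes, with 6 and 9 false calls. For auxin it recovered 14% and 63.5% in low cells and 9% and 64.5% in high cells, and for the difference between them 7.5% and 42%. False calls were 8 and 23 in low cells, 5 and 16 in high cells, and 2 and 2 for the difference.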

Additional observations from a re-analysis of the deposited data

Results flagged for a closer look

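Among 36 groups of 4 arm values tested for a value far from the others, 2 were found, and chance alone gives about 1 in 20. The log2 difference of Krt18 between Nanog-low and Nanog-high cells was 6.01 in replicate 1 control and between 1.22 and 1.91 in the other 3 arms. The median of the trophectoderm list was 2.73 in replicate 1 control and between -0.03 and 0.11 in the other 3 arms. In the Nanog-low cells of that arm 1 cell held 90.6% of the Krt18 counts, and 1 cell held 70.4% of the Krt8 counts. On the left-out plates Krt18 was called as well (2.53 ± 0.44, edgeR adjusted p = 8.8e-06), where 1 of the 4 low cells with a UMI on plate B gave 71.4% of the counts.

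The test of the difference between the auxin changes of Nanog-low and Nanog-high cells was past the threshold for Krt18 (-3.71) and for Gm38224 (-3.40). For Gm38224, 1 cell held 69.0% of the counts in the high cells of replicate 1 auxin, and with the classes set within bins of the UMI count its difference was -0.07. With limma on the mean of log2(CPM + 10) per cell, in which a single cell weighs no more than another, the differences were -0.25 for Krt18 and -0.67 for Gm38224, each with an adjusted p of 0.999.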

How the results depend on the processing

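The number of genes that differed between Nanog-low and Nanog-high cells was the least stable value. Against 6, it was 90 with DESeq2, 127 with no filter on low counts, 40 with cells thinned to 20000 UMIs, 33 with control cells only, 74 with the left-out plates of replicate 3 only, 3 with cells of the upper chromosome 6 range only, 0 with replicate 2 added (1053 at an unadjusted p under 0.05) and 0 with limma (1462). Low and high cells of an arm share a replicate by design. Without the replicate block edgeR called 0 genes (279 at an unadjusted p under 0.05), and the test of the difference between auxin changes then called 0. Leaving out 1 replicate gave 65 genes without replicate 1 and 160 without replicate 3. Against 99, replicate 2 gave 61 with classes within each plate and 428 with thinned cells.

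Against 0 genes after auxin in Nanog-high cells, the alternatives gave 7 with DESeq2, 3 thinned, 2 within UMI bins, 9 within ranges of chromosomes 6 and 11, 2 with 33% limits, 1 with more than 4000 detected genes and 19 with no filter. In Nanog-low cells 1 was called with thinned cells and 23 with no filter. Against 2, the difference between auxin changes gave 0 with DESeq2, limma, thinned cells, both left-out plates included or replicate 2 added, 1 with the upper chromosome 6 range only or 33% limits, 4 within plates or within ranges of chromosomes 6 and 11, and 5 with no filter. The causes were not tested. Auxin tests with 1 replicate left out have no residual degrees of freedom and were not run.

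No called gene changed sign in 142 values over 8 gene results, and 88 of them stayed on their side of the threshold. Of 245 values for 15 other named genes 22 changed sign, and of 285 list medians 52 did. The differences in UMI count, detected genes, ERCC percent and G2/M share kept their sign without any 1 arm.

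Depth limits the low genes and the smaller sums of low cells. Single cells held most counts of some genes, the 4 arms come from 2 replicates, and the sums of replicate 3 rest on 21 or 22 cells per class.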

Other observations

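Dppa1 was detected in few cells, and single cells gave nearly all of its counts. It measured 81.8 CPM in the Nanog-low cells of replicate 1 control, where 2 of 42 cells held it and 1 gave 93.0% of the counts, 12.8 CPM in replicate 1 auxin from 1 of 43 cells, 0.71 CPM in replicate 3 control from 1 of 22 cells, and 43.1 CPM in replicate 3 auxin from 2 of 21 cells, of which 1 gave 98.3%. In the Nanog-high cells 2 of 4 arms had no Dppa1 UMI and the others had 0.20 and 1.73 CPM. The gene was noticed after its values were seen and rests on 6 Nanog-low cells.

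Fabp3, a fatty acid binding protein, measured 1131, 740, 378 and 248 CPM in the Nanog-low cells of replicate 1 control, replicate 1 auxin, replicate 3 control and replicate 3 auxin, and 366, 327, 244 and 210 CPM in the Nanog-high cells (0.97 ± 0.18, edgeR adjusted p = 0.0764). In replicate 1 control 1 cell gave 49.4% of the low value, which was 596 CPM without it. On the left-out plates the values were 305 and 362 CPM against 344 and 221 CPM.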
